A study of Sus scrofa with 5 samples.

Results

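The 10 immediate early genes described here were followed through 5 single-cell RNA libraries of pig skin. They were FOS, FOSB, JUNB, ATF3, EGR1, NR4A1, KLF2, KLF4 and MYC, which encode transcription factors, and ZFP36, which encodes an RNA-binding protein. The 10 were chosen by gene symbol, each symbol matched 1 row, and they are 10 of 20286 gene rows in the deposited matrices. Pigs with full-thickness wounds received split-thickness grafts of skin. A graft of that kind carries the epidermis and only the upper dermis. The grafts were left untreated, or were dressed with FAKI hydrogel, FAKI standing for an inhibitor of FAK (focal adhesion kinase), an enzyme at the sites where cells hold the matrix, with dressings renewed every other day. Grafts were taken at day 7 or day 90, and unwounded pig skin was the fifth group. Strain, sex and age of the pigs, the compound and the number of animals behind a library are not stated in the labels, although several pigs were used in the study. All 5 tissues, unwounded skin included, were dissociated with enzymes before capture, a step that is known to induce immediate early genes by itself.

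Immediate early genes are transcribed within minutes of a stimulus from factors already present in the cell, without new protein synthesis, and their mRNAs decay quickly. FOS, FOSB and JUNB proteins form the dimeric factor AP-1, ATF3 binds related sites and responds to stress, and EGR1 and NR4A1 are a zinc finger factor and an orphan nuclear receptor induced by growth factors. KLF2 is a Kruppel-like factor that endothelial cells express under fluid shear, KLF4 takes part in the epidermal barrier, MYC drives growth and proliferation, and ZFP36 shortens the life of inflammatory mRNAs. In skin these genes are known to respond to wounding and stretch.

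The values below are unique molecular identifiers (UMIs), each standing for 1 captured mRNA molecule, given as CPM, the UMIs of a gene per 1000000 UMIs of a library or of a cell class in it. In the order untreated graft day 7, inhibitor graft day 7, untreated graft day 90, inhibitor graft day 90 and unwounded skin, which is kept throughout, the libraries held 74694696, 79671374, 79530631, 50384513 and 18485301 UMIs, and 7566, 8653, 5388, 3693 and 1542 cells were kept. With 1 library in each group there is no replicate to set a value against, no p-value is given, and all intervals (95%) cover counting error only. Differences between tissues and differences between single preparations cannot be told apart. The words higher and lower were used of a gene whose ratio was 1.5-fold or more at a mean of at least 25 CPM, which is a rule of size, and the share of all genes called by that rule in the same comparison is given as the background. Cell classes rest on RNA markers and are therefore named fibroblast-like and so on. A class in a library was used where it held at least 50 cells. Some barcodes occurred in more than 1 library. Unwounded skin shared 133 barcodes with the untreated and 152 with the inhibitor graft at day 90, which are 7.06% and 8.07% of its barcodes, the grafts at day 90 shared 70, and the other pairs of libraries shared 3 to 32. Without them the summed CPM of the 10 genes was 6471 instead of 6614 in the untreated graft at day 90, 8789 instead of 8833 in the inhibitor graft at day 90 and 12503 instead of 12791 in unwounded skin. The markers of each class led its own cells, except that the Schwann-like cells also carried the fat cell genes ADIPOQ and PLIN1, and 2 clusters stayed unnamed.

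The summed level of the 10 genes was lowest in both grafts at day 7, intermediate in both grafts at day 90 and highest in unwounded skin. Over all kept cells the sum was 2901, 3045, 6614, 8833 and 12791 CPM. Taken singly, 9 of the 10 genes stood above both grafts of day 7 in both grafts of day 90, MYC being the exception. Unwounded skin was highest for 9 of the 10, NR4A1 being the exception. The sum kept the order of day 7, day 90 and unwounded skin within the larger classes. In endothelial-like cells the sum was 3298, 3460, 9486, 9719 and 13348 CPM, and in mural-like cells (pericyte or smooth muscle, the contractile cells of vessel walls) it was 3943, 3363, 9812, 11096 and 15199 CPM. Fibroblast-like cells held 2685, 3250, 5144, 6327 and 11311 CPM, and mast-like cells 2857, 3469, 13075, 14999 and 19491 CPM. Keratinocyte-like cells, too few in the untreated graft at day 90, held 3705 and 3509 CPM at day 7, 10377 CPM in the inhibitor graft at day 90 and 14346 CPM in unwounded skin. The other immune classes were lower. Myeloid-like cells held 1673, 2046, 4465 and 5159 CPM in the 4 grafts, T/NK-like cells 980, 1057, 3151 and 3013 CPM, and B or plasma-like cells 291, 397 and 862 CPM in the first 3 grafts. The 23 T/NK-like cells of unwounded skin, below the minimum, gave 840 CPM, and 78.3% of them came from a cluster that made up 23.9% and 26.3% of the class at day 90, so no comparison is drawn from them.

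Both the share of cells with the RNA and the amount in such cells differed. Every cell was thinned to 2000 UMIs for this count, since depth differed between the libraries, and 972, 1680, 415, 267 and 119 shallower cells were left out. Of the 10 genes a cell then held a mean of 2.82, 2.70, 4.72, 5.60 and 5.83, against 4.61, 4.22, 7.03, 7.61 and 7.47 before thinning. At least 5 of the 10 were detected in 23.4% and 20.7% of cells at day 7, in 56.2% and 72.8% at day 90 and in 75.2% in unwounded skin. Cells with none of the 10 made up 15.6%, 16.5%, 4.30%, 2.60% and 3.02%. FOS was detected in 39.9% (95% interval 38.7 to 41.1), 42.7% (41.5 to 43.9), 78.3% (77.2 to 79.5), 84.6% (83.3 to 85.8) and 82.7% (80.6 to 84.6) of thinned cells. Among cells with FOS, the mean was 3.61, 4.19, 7.06, 7.88 and 10.1 UMIs per 2000, so the inhibitor graft at day 90 and unwounded skin had overlapping intervals for the share of positive cells but different amounts in them. No class was known to lack these genes. The lowest share of thinned cells with FOS in a class of at least 50 cells was in B or plasma-like cells at day 7, at 8.16% and 15.1%. The median depth of those cells was 13846 and 12297 UMIs, above that of all kept cells, and how much of any share came from free RNA was not tested.

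**Figure D1:**
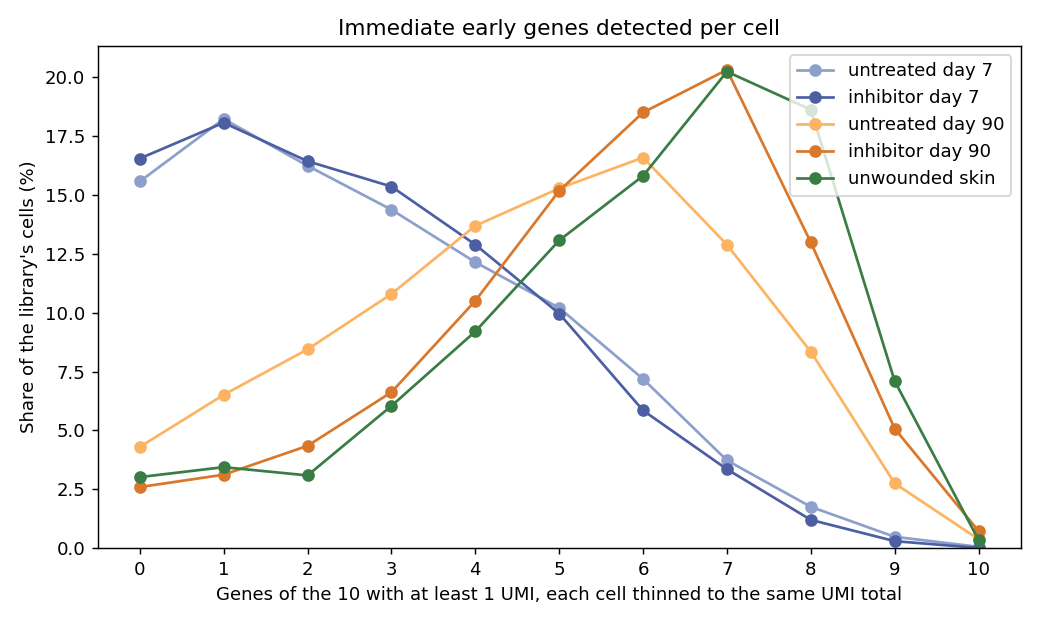
Share of each library's cells (vertical axis, %) by the number of the 10 genes with at least 1 UMI (horizontal axis) after each cell was thinned to 2000 UMIs, with 1 line per library and no error bars. The lines of both grafts at day 7 peak at 1 gene, and those of the inhibitor graft at day 90 and unwounded skin peak at 7 genes (20.3% and 20.2% of cells).

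Among the AP-1 genes, FOS and FOSB moved most. Over all kept cells FOS was at 656 (interval 650 to 662), 834 (827 to 841), 2194 (2184 to 2205), 2728 (2714 to 2743) and 3764 (3735 to 3792) CPM, and no 2 of these intervals overlapped. In each library except the untreated graft at day 7, mast-like cells had the highest FOS of any class, 1445, 5817, 7515 and 7925 CPM, the last 2 of which come from 177 and 59 cells. FOS in T/NK-like cells was 182 and 314 CPM at day 7 and 1239 and 967 CPM at day 90. FOSB over all kept cells was at 207, 184, 654, 939.7 and 1497 CPM. In keratinocyte-like cells FOSB was 153 and 180 CPM at day 7, 1137 CPM in the inhibitor graft at day 90 and 1756 CPM in unwounded skin. In fibroblast-like cells it was 228, 249, 579, 844 and 1694 CPM, and each later library stood above the one before. JUNB gave few UMIs in every library, 17.7, 20.4, 21.3, 31.0 and 41.3 CPM over all kept cells. At that depth JUNB passed the minimum in endothelial-like and mural-like cells and in few other classes. In mural-like cells JUNB was 28.4, 24.4, 45.1, 54.4 and 65.9 CPM.

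**Figure D2:**
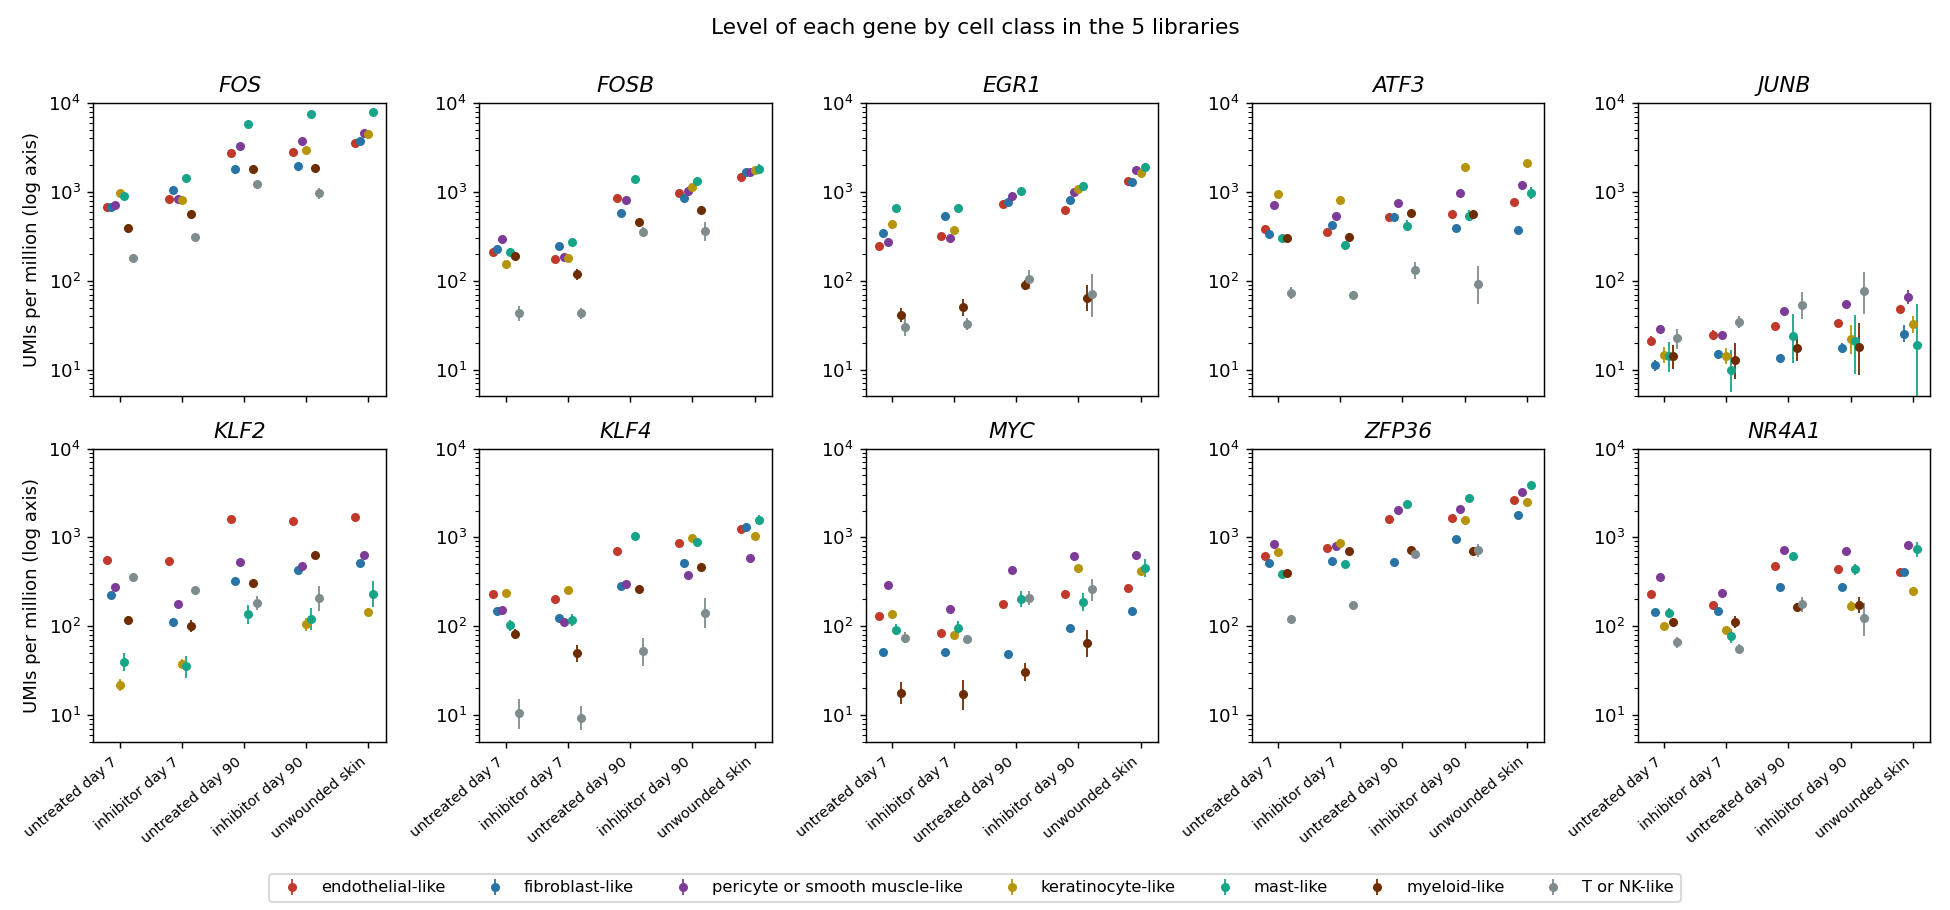
Level of each of the 10 genes (vertical axis, CPM, log axis) in the 5 libraries (horizontal axis), with 1 colour per cell class and 95% Poisson intervals as bars for classes of at least 50 cells. FOS in endothelial-like cells goes from 681 CPM in the untreated graft at day 7 to 3563 CPM in unwounded skin, whereas KLF2 in T/NK-like cells of the untreated graft is lower at day 90 than at day 7.

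ATF3 was the gene for which both grafts at day 90 least often stood above both at day 7, in 4 of the 7 clusters that could be followed through all libraries. It stood at 447, 439.5, 527, 618 and 939.8 CPM over all kept cells, and keratinocyte-like cells were its highest class at day 7 (938 and 817 CPM), in the inhibitor graft at day 90 (1901 CPM) and in unwounded skin (2102 CPM). In fibroblast-like cells ATF3 was 340, 421, 522, 397 and 374 CPM, so unwounded skin lay between the grafts at day 7. The other 8 genes read in fibroblast-like cells were highest in unwounded skin. In mural-like cells ATF3 was 715, 541, 756, 975 and 1197 CPM, and the untreated grafts at day 7 and day 90 differed by 1.06-fold (1.02 to 1.10).

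EGR1 differed widely between classes, and NR4A1 was highest in unwounded skin in only 3 of those 7 clusters. EGR1 over all kept cells was at 273, 346, 711, 752 and 1372.5 CPM. In mural-like cells EGR1 was 272, 299.8, 907, 989 and 1761 CPM, and in fibroblast-like cells 341, 537, 761, 815 and 1295 CPM. Myeloid-like cells held only 41.6, 50.3, 89.7 and 64.8 CPM of EGR1 in the 4 grafts, while the same cells held 396, 571, 1833 and 1847 CPM of FOS. T/NK-like cells were as low, with 30.3, 32.7, 104 and 71.2 CPM of EGR1. NR4A1 over all kept cells was at 185, 160.3, 358, 415 and 413 CPM, and the last 2 differed by less than counting error. In endothelial-like cells NR4A1 was 228, 172, 482, 441 and 407 CPM, so that both grafts at day 90 stood above unwounded skin. Mural-like cells had 354, 235, 719, 706 and 817 CPM of NR4A1, and the untreated and inhibitor grafts at day 90 differed by less than counting error there. RefSeq lists NR4A1 of the pig assembly as a pseudogene and the other 9 genes as protein coding.

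The Kruppel-like genes differed in where they were found. KLF2 was highest in endothelial-like cells, or second there to lymphatic endothelial-like cells, in each library. Endothelial-like cells held 550.3 (539 to 562), 542 (528 to 557), 1614 (1596 to 1632), 1512 (1495.5 to 1528) and 1679.9 (1652 to 1708) CPM of KLF2. The grafts at day 7 overlapped each other and lay far below the other 3 libraries, the lowest of which was 1.11-fold below the highest. Lymphatic endothelial-like cells, which line lymph vessels, held 796, 458, 1604.5 and 2447 CPM in the 4 grafts. Keratinocyte-like cells held 21.9 and 37.3 CPM of KLF2 at day 7, 106 CPM in the inhibitor graft at day 90 and 145 CPM in unwounded skin. In T/NK-like cells, where KLF2 is known to keep resting lymphocytes quiescent, the untreated graft was lower at day 90 than at day 7, and the intervals of the inhibitor grafts overlapped, with 357 (334 to 380), 253 (239 to 268), 183 (151 to 220.0) and 209 (149.7 to 283) CPM in the 4 grafts. KLF4 was spread over more classes. It was at 161, 129.6, 393, 674 and 1077 CPM over all kept cells and at 149, 123, 283, 513 and 1294 CPM in fibroblast-like cells. In keratinocyte-like cells KLF4 was 239 and 253 CPM at day 7, 988 CPM in the inhibitor graft at day 90 and 1048 CPM in unwounded skin. T/NK-like cells held 10.5 and 9.35 CPM of KLF4 at day 7 and 52.2 and 142 CPM at day 90.

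MYC and ZFP36 stood out in fibroblast-like cells, where the class level of the untreated graft at day 90 was still near that of day 7. MYC over all kept cells was at 122, 90.7, 119, 246 and 294 CPM, so that the untreated graft was no higher at day 90 than at day 7. Mural-like cells held the most MYC in each library, with 294, 155, 433, 622 and 636 CPM. Fibroblast-like cells held 51.5, 51.1, 48.8, 94.6 and 149 CPM of MYC, and the first 3 libraries were within counting error of each other. ZFP36 over all kept cells was at 557, 645, 966, 1481 and 2399.8 CPM. In fibroblast-like cells ZFP36 was 512, 545, 533, 954 and 1777 CPM, again with 3 low grafts, the inhibitor graft at day 90 above them and unwounded skin highest. The clusters filling the class changed, and within clusters ZFP36 of the untreated graft was above its level of day 7 at day 90. It went from 596 to 661 CPM in the cluster led by GREM1 and F13A1 and from 231 to 315 CPM in that led by MMP13. In the cluster led by C4A and EFEMP1 it went from 966 to 1128 CPM, and in one of 54 and 91 cells from 177 to 346 CPM. Only this last difference reached 1.5-fold. In endothelial-like cells ZFP36 was 622, 762, 1617, 1665 and 2611 CPM, and the grafts at day 90 were nearly level.

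The untreated graft at day 7 was compared with unwounded skin to ask how far the early graft stood from normal skin. All 10 genes were lower over all kept cells (background, 18.3% of genes lower). FOSB was 7.24-fold lower (7.09 to 7.39), KLF4 6.67-fold (6.52 to 6.83), FOS 5.74-fold (5.67 to 5.81), EGR1 5.03-fold (4.94 to 5.13) and ZFP36 4.31-fold (4.25 to 4.37). The smallest differences were those of ATF3, 2.10-fold lower (2.06 to 2.14), and NR4A1, 2.23-fold lower (2.16 to 2.29). By class, 10 of 10 genes read were lower in endothelial-like cells (background 15.7%) and in mural-like cells (20.5%). In keratinocyte-like cells 9 of 9 were lower (17%), in mast-like cells 9 of 9 (38.7%) and in fibroblast-like cells 8 of 9 (15.2%), ATF3 being the exception. None was higher in any class (background 16.5% to 30.7% by class). Folds were widest in mast-like cells, where KLF4 was 15.5-fold lower (12.8 to 18.7) and ZFP36 10.0-fold lower (8.99 to 11.2) on 59 unwounded cells. In fibroblast-like cells KLF4 was 8.69-fold lower (8.27 to 9.12), against 3.89-fold (3.62 to 4.19) in mural-like cells. The median log2 ratio of all genes was -0.01 over all kept cells, 0.06 in endothelial-like cells and 0.24 in fibroblast-like cells. The fibroblast-like genes above were therefore lower in a class whose genes had a median above 0.

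The grafts were then compared over time. In the untreated graft, day 90 against day 7, 7 of 9 genes were higher over all kept cells (background, 8.94% of genes higher). By class, 7 of 10 genes were higher in endothelial-like cells (8.86%, with none lower, 9.65%), 8 of 10 in mural-like cells (10.1%), 6 of 9 in fibroblast-like cells (6.9%) and 8 of 9 in the mast-like class (30.1%). The immune and lymphatic classes did the same, with 9 of 10 in T/NK-like cells (14%), 7 of 8 in myeloid-like cells (18.3%) and 8 of 9 in lymphatic endothelial-like cells (13.6%). In B or plasma-like cells 5 of 6 were higher (4.67%), but 3 of these turned round under other clustering. FOS was 4.06-fold higher (3.98 to 4.15) in endothelial-like, 4.55-fold (4.44 to 4.66) in mural-like, 2.64-fold (2.59 to 2.70) in fibroblast-like and 6.43-fold (6.06 to 6.83) in mast-like cells. The only lower value was KLF2 in T/NK-like cells (13.8% of genes lower there), with a log2 ratio of -0.96 that lay between -1.12 and -0.66 under the alternatives. In 1 T/NK-like cluster, 27.6% of the class at day 7 and 39.9% at day 90, KLF2 went from 476 to 106 CPM. In the other T/NK-like clusters it went from 287 to 266 and from 314 to 259 CPM, which did not reach 1.5-fold. MYC and ZFP36 in fibroblast-like cells as a class, at 0.948-fold (0.876 to 1.03) and 1.04-fold (1.02 to 1.07), did not pass the rule. Within the fibroblast-like clusters given above ZFP36 stood above its level of day 7, but only the cluster of 54 and 91 cells reached 1.5-fold.

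In the inhibitor graft most of the genes were likewise higher at day 90 than at day 7. All 10 were higher in mural-like cells (background 22.5%) and in lymphatic endothelial-like cells (20.2%). The count was 9 of 10 in endothelial-like cells (14.2%), 8 of 9 in fibroblast-like cells (12.3%), 9 of 9 in the keratinocyte-like class (17.6%), 9 of 9 in the mast-like class (31.9%), 8 of 10 in T/NK-like cells (21.7%) and 7 of 9 in myeloid-like cells (25.4%). None was lower in any of these classes (background 14.6% to 32.3% by class). In fibroblast-like cells KLF4 was 4.17-fold higher (3.98 to 4.37) and KLF2 3.81-fold higher (3.627 to 3.999), in a class whose median log2 ratio over all genes was -0.29. In mural-like cells MYC was 4.01-fold higher (3.84 to 4.20). In keratinocyte-like cells, of which 66 were kept at day 90, FOSB was 6.31-fold higher (5.84 to 6.83) and MYC 5.74-fold higher (5.09 to 6.48). This time course and that of the untreated graft share no library, and the difference between them was not tested.

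Grafts at day 90 remained below unwounded skin for part of the genes. Against unwounded skin the untreated graft was lower for 7 of 9 genes in fibroblast-like cells (background, 17.8% of genes lower), 6 of 10 in endothelial-like cells (6.95%), 5 of 10 in mural-like cells (9.32%) and 6 of 9 in the mast-like class (22.5%). KLF4 in fibroblast-like cells had the largest difference, with a log2 ratio of -2.19. The inhibitor graft was lower for 6 of 9 genes in fibroblast-like cells (13.6%), 2 of 10 in endothelial-like cells (3.98%), 4 of 10 in mural-like cells (4.49%), 4 of 10 in the keratinocyte-like class (10%) and 6 of 9 in the mast-like class (16.5%). KLF4 in fibroblast-like cells was again farthest from unwounded skin, with a log2 ratio of -1.34. In neither graft was a gene higher than in unwounded skin by the rule. The background of higher genes ran by class from 5.68% to 19.4% in the untreated graft and from 1.91% to 18.2% in the inhibitor graft. Where that share was low, the absence of higher genes says little. With each cell thinned to 2000 UMIs the inhibitor graft had 12 lower pairs of gene and class in place of 22, and 1 higher. The mast-like class, with 6 of the 22, was left out there. Only 39 of its unwounded cells reached that depth, below the minimum of 50. The genes lower in endothelial-like cells in both grafts included EGR1 (log2 ratios of -0.83 and -1.07) and ZFP36 (-0.69 and -0.65), and KLF2 there was at -0.06 and -0.15. These comparisons share the unwounded library.

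Different clusters filled the same class in different libraries, and values within clusters are therefore given too. In endothelial-like cells the cluster led by CXCL11 and CSF3 made up 54.6% and 66.3% of the class at day 7 and 10.5%, 3.97% and 5.24% later, and it held only 2011 and 2300 CPM of the 10 genes at day 7. Fibroblast-like cells at day 7 came mostly from clusters led by GREM1 and F13A1 (51.1% and 45.2%) and by MMP13 (25.1% and 40.9%), those of the untreated graft at day 90 from one led by THBS4 and SFRP2 (49.4%), and those of the inhibitor graft at day 90 and unwounded skin from one led by CPZ and CCDC80 (44.1% and 46.3%) and one led by C4A and EFEMP1 (28.6% and 47.1%). Within clusters the order held. The cluster led by C4A and EFEMP1 held 4963, 7267, 8415.5, 10856 and 16810 CPM of the 10 genes, and the smooth muscle-like cluster led by ITIH4, RERGL and MYH11 held 5818, 3848, 12809.9, 13012 and 18549 CPM. The endothelial-like cluster led by GPIHBP1 and BTNL9 held 5824, 5862, 11537.5, 10421 and 13379.7 CPM. In the endothelial-like cluster led by ACKR1 the range was narrower, 4851, 5941, 7540.0, 7389 and 10812 CPM. Of 70 pairs of gene and cluster in the 7 clusters with at least 50 cells in all 5 libraries, unwounded skin was above both grafts at day 7 in 69 and above all 4 grafts in 58, and both grafts at day 90 were above both at day 7 in 63.

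**Figure D3:**
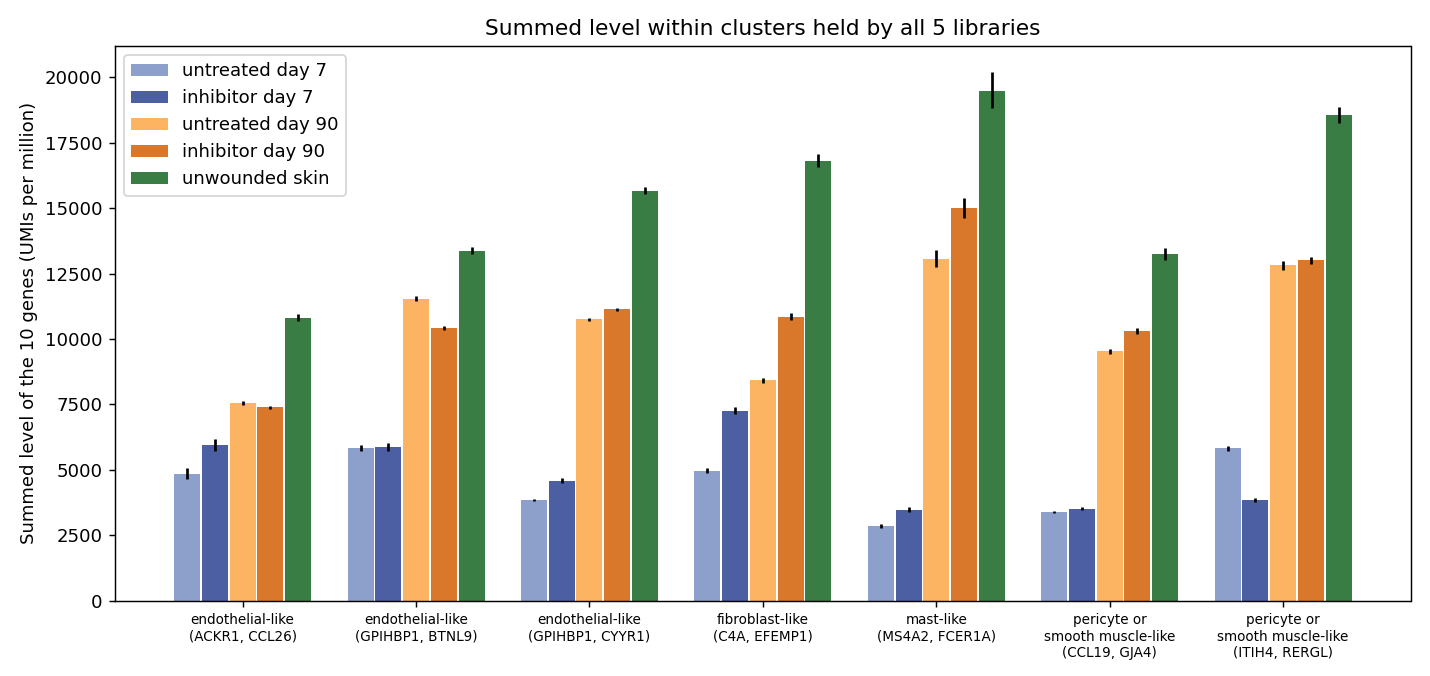
Summed level of the 10 genes (vertical axis, CPM, from 0) in the 7 clusters with at least 50 cells in each library, with 1 bar per library, 95% Poisson intervals as error bars and 2 leading genes of each cluster in parentheses. In each of these clusters unwounded skin has the tallest bar and the bars of day 7 are the shortest.

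Other measures of the libraries are set beside this order. Median mitochondrial shares were 4.65%, 2.96%, 2.93%, 4.24% and 4.82% of UMIs, and median UMIs per cell were 6318.5, 5508, 9598, 8034 and 7440.5. In endothelial-like cells the summed level of 10 fibroblast markers was 2939, 1461, 3199.7, 1853 and 1301 CPM, and that of 9 keratinocyte markers 145, 83.9, 34.3, 43.4 and 71.9 CPM. In fibroblast-like cells 9 endothelial markers summed to 34.2, 20.3, 30.2, 39.2 and 58.0 CPM, highest in unwounded skin, where 8 of the 9 were above 0. Larger sums went the other way. In mural-like cells 10 fibroblast markers gave 10111, 9395, 9424, 6641 and 5378 CPM. In fibroblast-like cells 10 mural markers gave 1497, 1789, 2419, 1168 and 420 CPM, and both sums were lowest in unwounded skin. Heat shock genes, which tissue digestion is also known to raise, were summed over the 9 measured. They gave 4361, 4854, 3787, 4086 and 4764 CPM over all kept cells, and in the untreated graft at day 7 against unwounded skin 1 was higher (background 17%), 3 were lower (18.3%) and the median log2 ratio was -0.05. DNAJB1, BAG3 and DNAJA1, which encode co-chaperones, were the lower ones, with log2 ratios of -1.12, -0.85 and -0.68, and HSPE1, a mitochondrial chaperonin gene, was higher at 1.04. The part of these measures in the order of the libraries, and that of digestion, was not tested.

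The inhibitor graft was compared with the untreated graft at each time to ask what the FAK inhibitor changed. At day 7 none of 9 genes read was called over all kept cells (background, 2.5% of genes higher and 3.9% lower), and the classes differed. In fibroblast-like cells FOS was 1.53-fold higher (1.495 to 1.564) and EGR1 1.57-fold higher (1.53 to 1.63), while KLF2 was 2.003-fold lower (1.90 to 2.11), which makes 2 of 9 higher (background 2.74%) and 1 lower (3.57%). In mural-like cells 4 of 10 were lower (5.95%), (none was higher, 2.26%), namely MYC at 1.90-fold (1.81 to 1.99), FOSB at 1.60-fold (1.53 to 1.67), KLF2 at 1.57-fold (1.501 to 1.648) and NR4A1 at 1.51-fold (1.45 to 1.57). MYC was lower in keratinocyte-like cells as well, by 1.74-fold (1.56 to 1.95), where KLF2 was 1.71-fold higher (1.38 to 2.12), which is 1 of 9 each way (3.81% and 4.78%). Leaving the 2-fold rule aside, the calls of FOS (log2 ratios of 0.59 to 1.11) and EGR1 (0.63 to 0.98) in fibroblast-like cells and of KLF2 (-0.66 to -0.59) and MYC (-0.95 to -0.80) in mural-like cells held under each alternative, while FOSB and NR4A1 of mural-like cells reached -0.49 and -0.48. The call of KLF2 in fibroblast-like cells was lost when shared clusters were weighed the same (log2 ratio of -0.39), that of MYC in keratinocyte-like cells when cells were thinned (-0.14), and that of KLF2 there with doublets kept (0.48). Mural-like clusters differed among themselves. From the untreated to the inhibitor graft, KLF2 was 169 and 163 CPM in a cluster of 583 and 600 cells. In the cluster led by ITIH4, RERGL and MYH11 it was 551 and 235 CPM. FOS, not called for the class, was 593 and 1011 CPM in the former and 1182 and 833 CPM in the latter. In endothelial-like cells 1 of 9 was lower, MYC (4.07%), and this call was lost under 5 alternatives, its log2 ratio running from -0.73 to -0.06.

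Among immune cells at day 7 the genes called differed from class to class. FOS was 1.60-fold higher (1.501 to 1.702) in mast-like cells (1 of 9 higher, background 6.6%), where NR4A1 was 1.81-fold lower (1.46 to 2.27), 1 of 9 (4.85%). ZFP36 was 1.76-fold higher (1.62 to 1.91) in myeloid-like cells, the 1 of 8 that was higher (7.05%), and FOSB and KLF4 were lower there (5.9%). T/NK-like cells had FOS 1.72-fold higher (1.55 to 1.91) and JUNB 1.53-fold higher (1.13 to 2.10), 2 of 9 (2.75%), and none of the 9 was lower (2.9%). With cells of at least 1000 genes and at most 10% mitochondrial UMIs these became log2 ratios of 0.21 and -0.07, so neither call held. None of the 3 genes read in B or plasma-like cells was called (19.5% of genes higher and 3.08% lower). In dendritic-like cells 4 of 8 were higher (8.16%), FOS, ATF3, KLF2 and MYC, and none was lower (9.6%). In lymphatic endothelial-like cells none of 9 was higher (8.02%) and 3 were lower (10%), EGR1, KLF2 and MYC, the interval for MYC reaching from 0.88-fold to 3.53-fold lower. With doublets kept, the log2 ratios in dendritic-like cells were 0.42 for FOS, 0.50 for ATF3 and 0.06 for KLF2, all below the rule, and NR4A1 in mast-like, FOSB in myeloid-like and KLF4 in myeloid-like cells were at -0.48, -0.48 and -0.26. Thinning left MYC in dendritic-like cells at 0.19 and EGR1 in lymphatic endothelial-like cells at -0.31. The counts moved with the setting. With the mean of each cell's own CPM, 20 pairs of gene and class were higher in place of 11, and with a 2-fold rule 1 pair was higher and 1 lower in place of 11 and 13.

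The unnamed cluster led by SPP1, ARG1 and S100A8 held 336 and 360 cells at day 7 and 55 in the untreated graft at day 90. Its summed level of the 10 genes was 612, 1000.5 and 2489 CPM. In the inhibitor against the untreated graft at day 7, ZFP36 was 2.93-fold higher (2.57 to 3.35), ATF3 2.71-fold higher (2.31 to 3.19) and EGR1 2.08-fold higher (1.53 to 2.84) there, which is 3 of 8 genes read (background, 10.8% of genes higher), and FOSB was 1.67-fold lower (1.28 to 2.20), 1 of 8 (13.8%). From day 7 to day 90 in the untreated graft 8 of 8 were higher (18%), with KLF2 at 6.30-fold (5.06 to 7.84) and FOS at 6.16-fold (5.54 to 6.86).

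At day 90 the inhibitor graft was higher for 3 of 10 genes over all kept cells (background, 9.96% of genes higher) and lower for none (5.43%). MYC was 2.06-fold higher (2.01 to 2.12), KLF4 1.71-fold (1.69 to 1.74) and ZFP36 1.53-fold (1.52 to 1.55), but ZFP36 fell below the rule with median-ratio scaling, thinned cells and per-cell CPM (log2 ratios of 0.54, 0.42 and 0.38), and KLF4 with per-cell CPM (0.53). The same 3 of 9 genes were higher in fibroblast-like cells (5.11%) and none was lower (4.69%), MYC by 1.94-fold (1.81 to 2.08), KLF4 by 1.81-fold (1.76 to 1.86) and ZFP36 by 1.79-fold (1.75 to 1.83). When shared fibroblast-like clusters were given equal weight in both libraries, the log2 ratios were 0.51, 0.47 and 0.54 in place of 0.96, 0.86 and 0.84, and no longer passed the rule. FOS, EGR1 and NR4A1 were nearly level in these cells, with log2 ratios of 0.13, 0.10 and 0.02. None of 10 genes was called in endothelial-like cells (background, 0.566% higher and 0.733% lower) or in mural-like cells (2.09% and 2.88%), and none of 9 in mast-like cells (16.3% and 8.86%). In the smaller classes KLF4 was higher in lymphatic endothelial-like cells (4 of 10 genes higher, 9.81%) and in the 53 myeloid-like cells (3 of 9, 6.47%, with none lower, 7.72%). KLF4 was also the 1 of 10 genes higher in the 76 T/NK-like cells, a count no larger than the background share there (15%). With per-cell CPM the log2 ratios of KLF4 and KLF2 in lymphatic endothelial-like cells were 0.36 and 0.33, below the rule. MYC, called in myeloid-like cells too, turned to a log2 ratio of -0.86 when cells were thinned. No pair of gene and class was lower, but 8 were with the mean of each cell's own CPM, 4 of them in T/NK-like cells. 

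**Figure D4:**
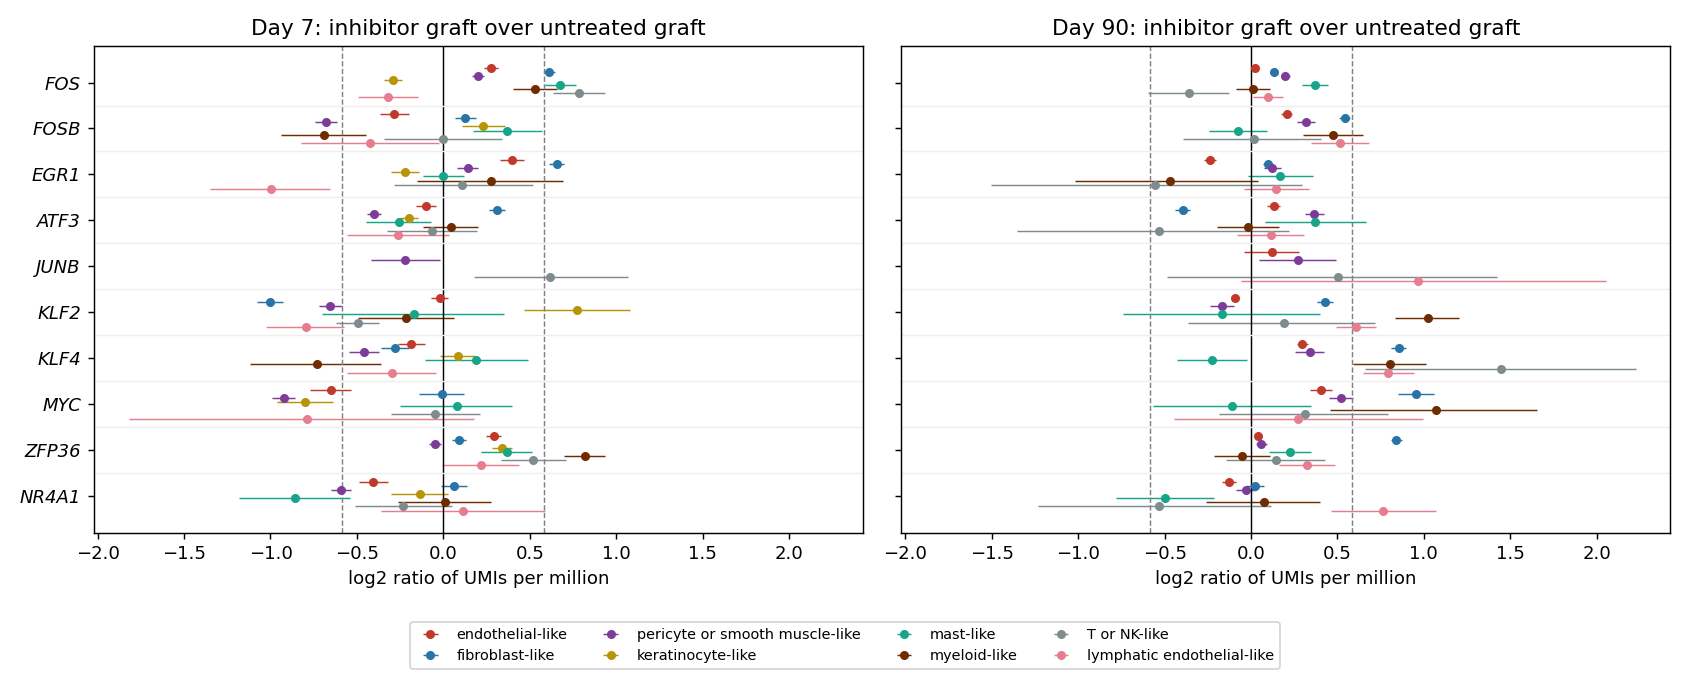
Log2 ratio of CPM, inhibitor graft over untreated graft (horizontal axis), for each gene read (vertical axis), with 1 colour per cell class, at day 7 on the left and day 90 on the right. Bars are 95% intervals of counting error, the dashed lines mark 1.5-fold, and KLF4, MYC and ZFP36 of fibroblast-like cells lie to the right of the line at day 90 only.

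Other immediate early genes moved less uniformly than the 10. Of 28 measured, 26 were read over all kept cells in the untreated graft at day 7 against unwounded skin, of which 12 were lower (background 18.3%) and 2 higher (17%), with a median log2 ratio of -0.52 against -0.01 for all genes. The lower ones included EGR2 (-2.35), ID1 (-1.73) and PPP1R15A (-1.65), a regulatory subunit of the phosphatase that ends the stress-induced block of translation. The higher ones were CEBPB (0.82) and FOSL2 (0.93), which encode factors of the C/EBP and AP-1 families. In mural-like cells 15 of 24 were lower (20.5%) and 3 higher (16.5%), led by GADD45B (-2.12), PPP1R15A (-1.9996) and ID1 (-1.78). From day 7 to day 90 in fibroblast-like cells, 4 of 22 were higher (background 6.9%) and 4 lower (15.5%) in the untreated graft, and 8 higher (12.3%) and 7 lower (32.3%) in the inhibitor graft, the lower counts being near the background share. At day 7 the inhibitor graft had 8 of 24 lower in mural-like cells (5.95%) and none higher (2.26%), among them GADD45A (-0.88), NR4A3 (-0.82) and NR4A2 (-0.81), the latter 2 of the same receptor family as NR4A1.

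Genes that restrain or follow the 10 were read as lists. Feedback inhibitors of the kinase cascade upstream were mixed. In the untreated graft at day 7 against unwounded skin 4 of 7 were lower (background 18.3%), with DUSP6 at -1.13, DUSP1 at -0.98, DUSP5 at -0.89 and SPRY4 at -0.70, and 2 were higher (17%), SPRY2 at 0.96 and DUSP2 at 0.61. Of 9 factors and kinases that act upstream of the 10, 1 was higher and 1 lower, near the same background shares, and PTK2, the FAK gene, was at -0.10. Of mRNAs known to be bound by ZFP36, 5 were read in fibroblast-like cells in that comparison. Of these, 4 were higher (background 30.7%) while ZFP36 was lower. CXCL8 was at 189 against 1.86 CPM (6 UMIs), and IL6 at 1.65, CXCL2 at 1.43 and PTGS2 at 1.22 on the log2 scale. CXCL8 passed the minimum through the graft alone, so its call followed from the filter. Targets below the minimum were not read, and the count and median describe only those read. The fifth, IER3, was at 0.30, and the median of the 5 was 1.43 against 0.24 for all genes. The 4 encode 2 neutrophil-attracting chemokines, a cytokine and an enzyme of prostaglandin synthesis. In the inhibitor graft all 5 read were lower at day 90 than at day 7 in fibroblast-like cells (background 32.3%). The cluster led by MMP13 made up 40.9% of those cells at day 7 and 0.891% at day 90. Whether ZFP36 or the change of clusters had a part in these values was not tested. KLF2 and the genes linked to it did not move together in endothelial-like cells. KLF2 was 3.05-fold lower (2.97 to 3.14) in the untreated graft at day 7 than in unwounded skin, while S1PR1 at -0.36, ASS1 at -0.07 and NOS3 at 0.17 did not pass the rule. Of growth genes linked to MYC, 2 of 8 were higher over all kept cells (background 17%, a share near theirs) and none was lower (18.3%), LDHA at 1.10 and NPM1 at 0.60, with a median log2 ratio of 0.47 against -0.01 for all genes. MYC itself was 2.40-fold lower (2.32 to 2.49) in that comparison.

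The 10 genes varied together across classes and libraries to different degrees. Over 42 units, each a named class in 1 library, the levels on the log2(CPM + 10) scale gave Pearson's r of 0.96 (Spearman's rho 0.94) for FOS and FOSB, 0.94 (0.89) for FOS and ZFP36 and 0.92 (0.89) for FOS and KLF4. The lowest pair was KLF2 and MYC at 0.27 (0.25), followed by ATF3 and JUNB at 0.34 (0.37). Units of 1 library share its preparation and depth, and units of 1 class share its markers, so these values are a description. Among 4352 other genes, those most like the mean of the 10 included KLF10 (r of 0.92), IER5L (0.92), CTDSP1 (0.91), PPP1R15A (0.91), EEF2 (0.91), BRD3 (0.90), BAG3 (0.90), HES1 (0.88) and NFKBIZ (0.88). Some of these, such as KLF10 and PPP1R15A, are themselves immediate early genes, whereas EEF2, an elongation factor of translation, is present in every cell. The gene most like KLF2 was TGFBR2 (0.88), a receptor of TGF-beta, and the one most like MYC was NOP2 (0.88), an enzyme of ribosome making.

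Within a class, some of the genes were found more often in cells with FOS than in cells without, and others were not. In thinned fibroblast-like cells of unwounded skin, EGR1 was detected in 82.2% of the 202 cells with FOS and in 36.7% of the 49 without, and FOSB in 90.6% and 42.9%. In mural-like cells of the untreated graft at day 7, EGR1 was detected in 46.1% of 723 cells with FOS and 13.5% of 845 without. In the same cells MYC differed less, 44.5% and 38.0%. MYC in fibroblast-like cells of the untreated graft at day 7 was found in 8.26% of cells with FOS and 12.2% of those without. Cells of 1 library are not replicates, and these shares describe single preparations.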

How the data were processed

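Single cells of 5 pig skin samples were profiled with 3' chemistry version 3 of the 10x platform, per the labels' protocols. The authors deposited 1 matrix of UMI counts per library, whole numbers per gene and cell barcode, made with Cell Ranger, and Seurat 3.1.1 is also named, per the submitters' processing notes. The genome build was not given in the sources used here. Of 32554 barcodes, 26842 cells were kept with at least 500 genes, at most 25% mitochondrial UMIs (13 genes) and without the highest Scrublet scores, at 0.8% of cells per 1000 cells. The automatic doublet threshold marked 0, 0, 89, 4 and 4 cells and was not used.

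All libraries were clustered together without integration in Scanpy 1.11.5 (2000 variable genes, 30 components, 20 neighbours, Leiden resolution 1), which gave 30 clusters. The 10 genes and other digestion-linked genes, 57 in all, were left out of clustering. Clusters were named from 123 measured markers of 16 classes, and one of the naming rules was added after the clusters were seen. UMIs were summed per class and library and given as CPM, with exact Poisson intervals for levels, exact binomial intervals for ratios and Clopper-Pearson intervals for shares. The 1.5-fold rule was tested on simulated counts. PCR and capture make these intervals cover counting error only.

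All 10 genes are named, with the 10 genes most like their mean over 42 units (1 of which is not reported here), and up to 4 examples of each other list by size of ratio. The members and lists were chosen with earlier results of these data known. The alternatives were other cell filters, doublets kept, other clusterings, other minimum levels, scaling, thinning and a 2-fold rule. With 1 library per group no test between groups was possible. SciPy 1.17.1, NumPy 2.4.6 and pandas 2.3.3 were used. No sequence is printed.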

Additional observations from a re-analysis of the deposited data

Results flagged for a closer look

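Some genes moved past the 1.5-fold rule one way in one class and the other way in another, under the same comparison. With 1 library per group the difference was not tested in any of them, and log2 ratios are given. KLF2 from day 7 to day 90 in the untreated graft was at -0.96 in T/NK-like cells, against 1.55 in endothelial-like, 1.01 in lymphatic endothelial-like, 1.79 in mast-like, 1.40 in myeloid-like and 0.94 in mural-like cells. Of the T/NK-like clusters only 1 passed 1.5-fold, going from 476 to 106 CPM. In the inhibitor against the untreated graft at day 7, KLF2 was at 0.75 in dendritic-like and 0.77 in keratinocyte-like cells, and at -1.0 in fibroblast-like, -0.80 in lymphatic endothelial-like and -0.65 in mural-like cells. MYC was at 0.84 in dendritic-like cells, against -0.65 in endothelial-like, -0.80 in keratinocyte-like, -0.79 in lymphatic endothelial-like and -0.92 in mural-like cells. The dendritic-like value of MYC was 0.19 with thinned cells, and the keratinocyte-like value of KLF2 was 0.48 with doublets kept, both below the rule. EGR1 was at 0.65 in fibroblast-like and -1.0 in lymphatic endothelial-like cells. Other calls of this comparison were lost too. Thinning lost those of EGR1 in lymphatic endothelial-like and MYC in keratinocyte-like cells. Doublets kept lost KLF2 in dendritic-like cells and turned MYC in lymphatic endothelial-like cells to 0.0062. Shared clusters weighed the same lost KLF2 in fibroblast-like cells, and several alternatives lost MYC in endothelial-like cells. Between the times, the same treatment comparison gave KLF4 in myeloid-like cells -0.73 at day 7 and 0.80 at day 90, and KLF2 in lymphatic endothelial-like cells -0.80 at day 7 and 0.61 at day 90. That last value was 0.33 with per-cell CPM, and KLF4 in myeloid-like cells was -0.26 at day 7 with doublets kept and 0.584 at day 90 at a clustering resolution of 0.5, all below the rule.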

How the results depend on the processing

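No paired analysis was possible because each group is 1 library. Of 256 pairs of gene and class past the 1.5-fold rule, 255 kept their direction with doublets kept and 253 with per-cell CPM. With each library clustered alone 252 of 252 did so, and with thinned cells 218 of 221. Fewer still passed the rule in that direction, 244 with doublets kept, 226 with per-cell CPM, 243 with libraries clustered alone and 197 with thinned cells. The counts of higher pairs over time (58 untreated, 70 inhibitor) and of lower pairs at day 7 against unwounded skin (46) stayed within 1.5 times under every alternative. Where a value below differs, the cause was not tested, apart from effects of construction. A stricter fold or minimum level admits fewer pairs. A class left unnamed or under 50 cells in a setting gives no pairs. Dendritic-like cells, with FOS, ATF3, KLF2 and MYC higher for the inhibitor at day 7, had no value with libraries clustered alone. They had none with at least 1000 genes and at most 10% mitochondrial UMIs either. With thinning, mast-like cells of unwounded skin fell below the minimum.

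For the inhibitor at day 7, the 11 higher pairs became 1 with a 2-fold rule, 5 with at least 1000 genes and at most 10% mitochondrial UMIs, 7 with libraries clustered alone, 7 at a minimum of 100 CPM, 18 at 5 CPM and 20 with per-cell CPM, and the 13 lower pairs became 1 with a 2-fold rule. At day 90 the 11 higher pairs became 3 with a 2-fold rule and 7 at 100 CPM, and the 0 lower pairs 1 with thinning and 8 with per-cell CPM. Over time, the 1 lower pair of the untreated graft became 0 with a 2-fold rule, 3 at resolutions 0.5 and 2, 5 with at least 300 genes and at most 40% mitochondrial UMIs, 2 with libraries clustered alone, 3 with per-cell CPM and 2 without shared barcodes. The 0 of the inhibitor graft became 1 with per-cell CPM and 1 with shared clusters weighed the same. Against unwounded skin, the 24 lower pairs of the untreated graft at day 90 became 8 with a 2-fold rule. The 22 of the inhibitor graft became 4 with that rule and 12 with thinning, which also gave 1 higher. Thinning left out the mast-like class, whose 39 unwounded cells of that depth were below the minimum.

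In the order of libraries used above, the summed CPM of the 10 genes (2901, 3045, 6614, 8833, 12791) was 2921, 3072, 6674, 8888 and 12864 with doublets kept, 3043, 3076, 8058, 9880 (9879.65) and 12897 with per-cell CPM and 3115, 3149, 7732, 9715 and 13057 with thinning. It was 2945, 3104, 8866 and 12960 (12959.7) under the stricter cell filter in all but the untreated graft at day 90, 12720 (12719.7) in unwounded skin under the looser filter, and 3029, 6471, 8789 and 12503 without shared barcodes in all but the untreated graft at day 7. Genes detected per cell, 4.61, 4.22, 7.03, 7.61 and 7.47, became 2.82, 2.70, 4.72, 5.60 and 5.83 with thinning.

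These log2 ratios changed sign. For the inhibitor at day 7, MYC in lymphatic endothelial-like cells was 0.0062 with doublets kept and 0.25 with thinning, JUNB in T/NK-like cells -0.069 under the stricter filter, and KLF2 in dendritic-like cells -0.29 at resolution 2. At day 90, NR4A1 in lymphatic endothelial-like cells was -0.035 with per-cell CPM and MYC in myeloid-like cells -0.86 with thinning, which gave that gene -0.50 over time in the inhibitor graft. Over time in the untreated graft, ATF3, ZFP36 and NR4A1 of B or plasma-like cells were -1.07, -0.75 and -1.09 under the looser filter, -0.72, -0.36 and -0.45 at resolution 0.5 and -0.59, -0.36 and -0.40 at resolution 2, and FOS and ATF3 were -0.41 and -1.11 with per-cell CPM. Leaving out shared barcodes, and leaving out the mural-like cluster led by CXCL10, were chosen after seeing the data. The latter kept MYC at -0.80 and FOSB at -0.61 in the inhibitor graft at day 7. Depth limits the classes of few cells, such as the 53 myeloid-like and 76 T/NK-like cells of the inhibitor graft at day 90.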

Other observations

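An unnamed cluster of 46 cells was found in the inhibitor graft at day 7 only and held 938 CPM of FOS and 757 CPM of EGR1.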
